A study of Mus musculus with 12 samples.

Results

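The genes described here encode the hypoxia-inducible factor (HIF) subunits and the oxygen sensors that act on them in cultured mouse bone marrow neutrophils. The members are Hif1a, Epas1, Hif3a, Arnt, Egln1, Egln2, Egln3, Vhl and Hif1an, which make up 9 of the 29737 gene rows in the count table. The set was chosen by gene name, and it was selected on a measured value of these samples as well, because Hif3a was lower with tauro-β-muricholic acid (Tβ-MCA) than with PBS. The difference of the members between Tβ-MCA and PBS is therefore given as a description, with no p-value and with calls only as counts beside the share of all genes called.

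RNA-seq was performed on 12 libraries of bone marrow neutrophils from wild-type mice, sorted for Ly6G, the neutrophil surface antigen, with magnetic beads and cultured in medium with fetal bovine serum. For 24 h the cells received PBS as control, taurocholic acid (TCA) at 200 μM, glycocholic acid (GCA) at 200 μM, or Tβ-MCA, with 3 libraries in each group. The sample labels give 10 μM for Tβ-MCA, whereas the written methods give 200 μM, so Tβ-MCA was set beside TCA and GCA without a comparison between them. TCA and GCA carry the same cholic acid and differ in the conjugated amino acid, which is taurine in TCA and glycine in GCA. All groups shared the genotype, the medium and the time, and no source says whether libraries of a group came from separate animals or cultures, so that p-values measure only the spread between these libraries. Oxygen was not a variable of the design.

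HIF is a pair of proteins that switches genes on when oxygen is scarce. The α subunits HIF-1α (Hif1a) and HIF-2α (Epas1) pair with ARNT, the constant β subunit, whereas HIF-3α (Hif3a) exists in several isoforms, some of which restrain the other α subunits. When oxygen is present, the prolyl hydroxylases PHD2 (Egln1), PHD1 (Egln2) and PHD3 (Egln3) mark the α subunits for VHL, which directs their degradation, and FIH (Hif1an) hydroxylates an asparagine that is needed for coactivator binding. Control is thus largely at the level of protein, which RNA-seq does not measure. In neutrophils HIF is known for sustaining glycolysis and survival at inflamed sites.

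The promoter of Hif3a, the gene on which the set was chosen, is shown with that of Egln3, an oxygen sensor that is itself a well-known HIF target, and with 1 of 2 promoter windows of Pdk1, a HIF target that was higher with Tβ-MCA. Each sequence is the stretch of 250 bases before a RefSeq transcript start in the mouse build GRCm38.p6, written 5′ to 3′ on the strand of the gene. Capitals mark the letters ACGTG or GCGTG on either strand, the core of the site that HIF binds.
Hif3a (chr7:17062428-17062677, minus strand): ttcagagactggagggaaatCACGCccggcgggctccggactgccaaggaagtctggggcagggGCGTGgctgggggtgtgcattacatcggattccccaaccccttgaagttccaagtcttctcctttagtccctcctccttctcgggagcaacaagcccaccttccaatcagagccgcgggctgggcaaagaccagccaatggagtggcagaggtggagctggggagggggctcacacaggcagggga
Egln3 (chr12:54203875-54204124, minus strand): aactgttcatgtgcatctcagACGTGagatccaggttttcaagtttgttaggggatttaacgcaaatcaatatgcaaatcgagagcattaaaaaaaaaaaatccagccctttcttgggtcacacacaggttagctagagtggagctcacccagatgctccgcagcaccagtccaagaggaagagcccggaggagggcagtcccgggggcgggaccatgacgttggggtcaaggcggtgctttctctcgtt
Pdk1 (chr2:71872974-71873223, plus strand): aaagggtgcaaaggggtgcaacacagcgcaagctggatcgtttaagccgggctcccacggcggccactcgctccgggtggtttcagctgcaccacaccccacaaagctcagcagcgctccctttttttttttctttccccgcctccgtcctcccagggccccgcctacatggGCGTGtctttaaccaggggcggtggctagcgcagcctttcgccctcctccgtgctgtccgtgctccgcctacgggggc
The Hif3a window held 2 of these cores, the Egln3 window held 1, and of the Pdk1 windows the one shown held 1 and the other 0. A core was present in 38.6% of all 32851 promoter windows of the same length, and 41.5% of all genes had at least 1 window with a core. Among HIF target genes taken from general knowledge, 35 of 42 with a window, 83.3%, held a core. Windows of Hif1a (3 cores), Egln1 (2), Egln2 (1 and 4 in separate windows) and Arnt (1) also held cores, and those of Vhl and Hif1an held 0. In Hif1a, 2 of the 3 cores were the same letters, CACGTG, counted on each strand. Epas1 had no window. A match is a description of the letters and not a binding site.

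By the coordinates of the count table (GRCm38), all 9 members were annotated as protein-coding. Hif3a lay on chromosome 7 from 17031507 to 17062427 on the minus strand, and Hif1a on chromosome 12 from 73901375 to 73947530 on the plus strand. Epas1 lay on chromosome 17 from 86753907 to 86833410, and Arnt on chromosome 3 from 95434388 to 95497240. The antisense gene Gm15283 shared 330 exon bases with Hif1a and had counts of 857 to 1394. The library kit kept the strand, but the strand setting of the counting is not given in the sources used here, so reads of Hif1a and Gm15283 may not be fully separated. The row 4833404L02Rik lay inside Hif3a with 0 shared exon bases and counts of 0 to 3, and Gm42672 lay inside Arnt with 0 shared exon bases. Egln2 and Cyp2t4 shared 11 exon bases.

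Total counts were 32757389 to 41375925 per library, so that the limit allowed by a count of 0, set at 3 counts, was 0.0725 to 0.0916 counts per 1000000 counts of the library (CPM). Counts of 2 were 2.93 to 3.62 times as frequent as counts of 1 among genes in every library, so counts may not be independent fragments, and errors from counting alone are lower limits. Summed over 12 neutrophil markers, the level was 51346 to 63399 CPM with PBS and 41708 to 47142 CPM with Tβ-MCA, with S100a9 and Ngp the most abundant. Ly6g, the gene of the Ly6G antigen, stood at 17.8 to 21.4 CPM with PBS and at 7.54 to 12.9 CPM with Tβ-MCA. T cell markers summed to at most 2.98 CPM and erythroid markers to at most 2.76 CPM in any library. Tβ-MCA replicate 5 stood nearer to the PBS libraries than the other Tβ-MCA libraries in monocyte and eosinophil markers and in several genes below. It was singled out after its values were seen, and leaving out a library that is near PBS can enlarge differences from PBS. Values without Tβ-MCA replicate 5 are therefore given as a description.

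All 9 members passed the filter on low counts, but at very different levels. Per exon length, in the deposited RPKM (reads per kilobase of exon per 1000000 reads), PBS-treated cells had 24.4 ± 0.768 of Arnt (mean ± SD, n = 3, as for the values below), 23.5 ± 1.36 of Egln2 and 22.6 ± 1.12 of Hif1a, and the ranges of these neighbours overlapped. Egln1 followed at 6.82 ± 0.496 RPKM, apart from its neighbours on either side. Hif1an at 4.72 ± 0.194 RPKM and Egln3 at 4.46 ± 0.216 RPKM overlapped. Vhl stood at 3.09 ± 0.359 RPKM, Hif3a at 0.557 ± 0.0351 RPKM and Epas1 at 0.218 ± 0.0351 RPKM, each without overlap with the next. Thus Hif1a was the dominant α subunit in RNA, and Egln2 the most abundant prolyl hydroxylase, with 3.46 ± 0.226 times the RPKM of Egln1 and 5.28 ± 0.308 times that of Egln3 within the same PBS library.

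**Figure D1:**
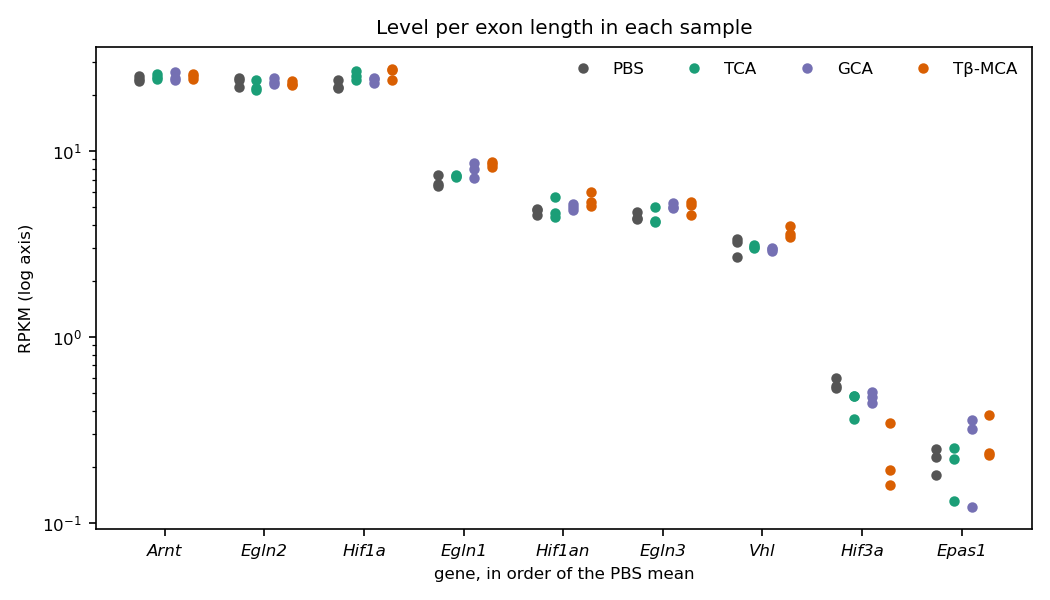
RPKM of each gene in each of the 12 libraries on a log axis, with genes in the order of their PBS mean and colours for the treatments. Arnt, Egln2 and Hif1a lie together near 23 RPKM, Hif3a and Epas1 lie lowest, and the Tβ-MCA points of Hif3a lie below its PBS points.

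The low members were also the most variable. The SD within groups was 34.6% of the mean CPM for Epas1 and 14.9% for Hif3a, against 4.69% to 9.14% for the other members. Counting alone would give 14.7% for Epas1 and 9.81% for Hif3a at their mean counts. Over all 12 libraries Epas1 had counts of 23 to 74, Hif3a 35 to 143, and Arnt 6626 to 8274.

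Hif3a CPM was 4.10, 3.59 and 3.67 in the PBS libraries (replicates 3, 5 and 6), from 143, 122 and 136 counts. With Tβ-MCA it was 1.05, 1.24 and 2.28 in replicates 3, 4 and 5, from 35, 46 and 85 counts. These were the lowest 3 values of the 12 libraries, and Tβ-MCA replicate 5 stood apart from the other Tβ-MCA libraries, toward PBS. With TCA, Hif3a was 2.48, 3.21 and 3.19 CPM, and with GCA it was 3.01, 3.12 and 3.42 CPM. Every TCA and GCA value of Hif3a lay below every PBS value.

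**Figure D2:**
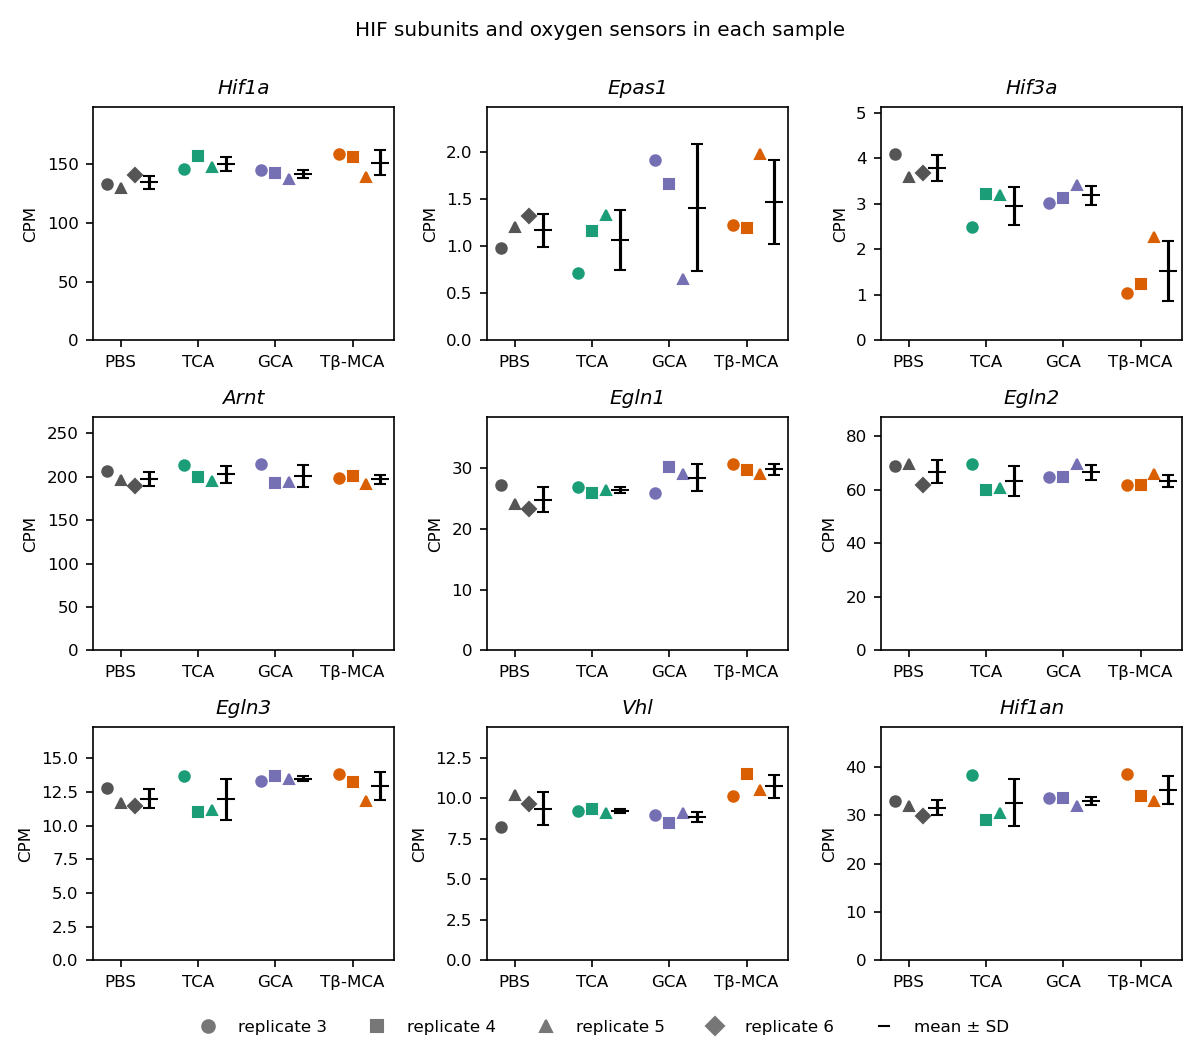
CPM of each gene by treatment, 1 panel a gene with its own axis from 0, with a symbol for each replicate number and the mean ± SD beside it. Hif3a falls from 3.79 CPM in PBS to 1.52 CPM in Tβ-MCA, whereas the points of Arnt and Egln2 overlap between all treatments.

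The mean Hif3a level was 3.79 ± 0.276 CPM with PBS, 2.96 ± 0.418 with TCA, 3.19 ± 0.212 with GCA and 1.52 ± 0.660 with Tβ-MCA. As a log2 fold change against PBS, Tβ-MCA gave −1.31 (SE 0.234), which became −1.72 without Tβ-MCA replicate 5. TCA gave −0.35 (SE 0.222) and GCA gave −0.25 (SE 0.221). The PBS libraries were shared by all 3 contrasts, and PBS values entered the choice of Hif3a, so no p-value of Hif3a is given for any of them. In bulk samples fewer cells that express a gene and less RNA per cell cannot be told apart.

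Within each library the ratio of Hif1a to Hif3a, which does not depend on the scaling between libraries, was 37.0 to 43.8 with PBS, 52.8 to 67.2 with TCA, 45.9 to 54.8 with GCA and 69.6 to 173 with Tβ-MCA. Of the summed RPKM of the 3 α subunits, Hif3a made up 2.39% ± 0.206 with PBS, 1.68% ± 0.199 with TCA, 1.92% ± 0.184 with GCA and 0.884% ± 0.446 with Tβ-MCA. Even in PBS it was a minor α subunit RNA.

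Tβ-MCA replicates 3 and 4, the lowest libraries in Hif3a, were also the lowest in the summed markers of monocytes and macrophages and of eosinophils. The sum of 12 monocyte and macrophage markers was 605 to 662 CPM with PBS, 507 to 665 with TCA and 510 to 655 with GCA, and, for replicates 3, 4 and 5 of Tβ-MCA, 289, 331 and 548. All 12 of these markers had a negative fold change with Tβ-MCA, with a median log2 fold change of −0.85, and 1, Ly6c2, was called lower. Of all genes tested, 3.18% were called lower, which is the background for each marker list here. The sum of 5 eosinophil markers was 138 to 241 CPM with PBS, and 78.5, 54.1 and 124 for the same replicates of Tβ-MCA, and the sum of 5 B cell markers was 7.50 to 12.5 CPM with PBS and 3.70 to 5.86 with Tβ-MCA. Among the 12 neutrophil markers, 11 had a negative fold change and 4 were called, namely Ly6g, S100a8, Mmp9 and Camp. Siglecf was the called gene among the eosinophil markers and Cd79a among the B cell markers, and these names were taken after the values were seen. The sum of 5 basophil and mast cell markers overlapped, at 24.6 to 48.6 CPM with PBS and 36.8, 21.7 and 22.3 CPM for replicates 3, 4 and 5 of Tβ-MCA, with 0 of 5 called. The order of the Tβ-MCA libraries was the same for Hif3a and for the monocyte and macrophage sum. Within PBS, within TCA and within GCA the orders differed. Within TCA, replicate 3 was lowest in both (2.48 CPM of Hif3a and 507 CPM of the sum). Within GCA, replicate 5 was highest in both (3.42 CPM and 655 CPM). PBS replicate 3 had the most Hif3a of all libraries (4.10 CPM) and the lowest monocyte and macrophage sum within PBS (605 CPM). The part of these cells in the Hif3a difference was not tested.

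**Figure D3:**
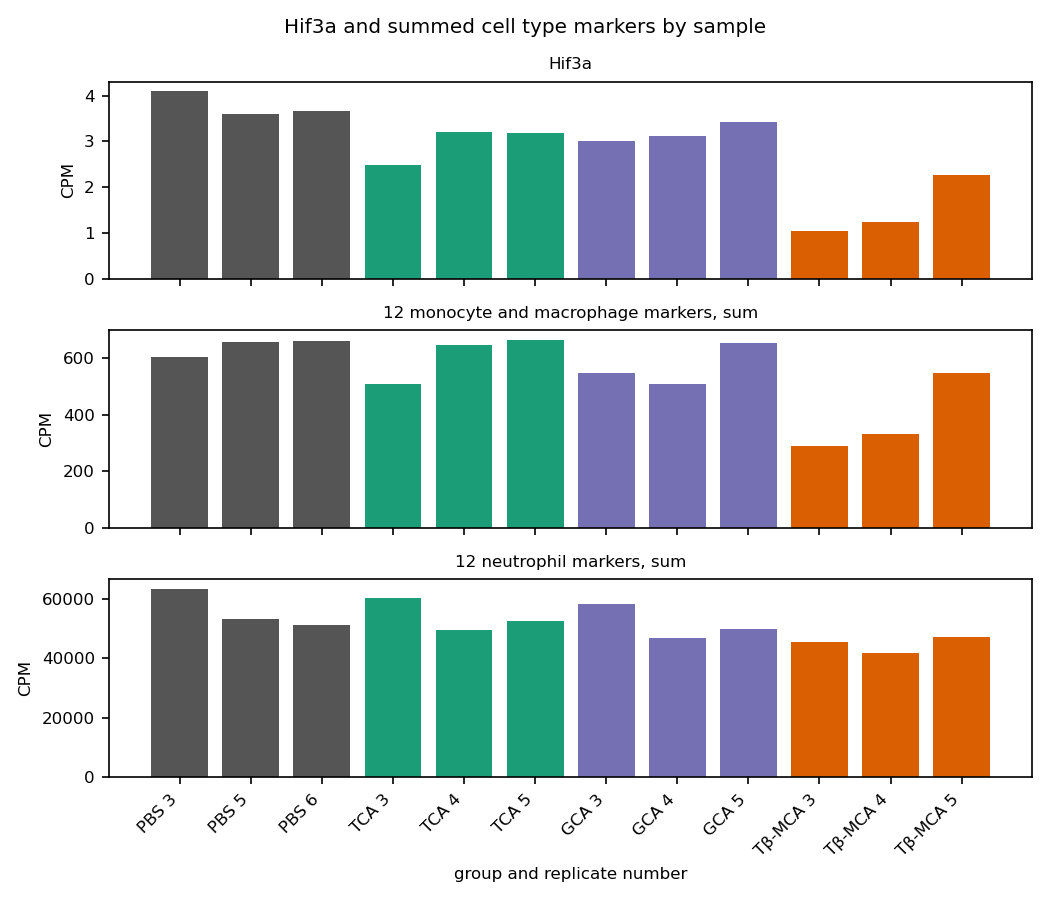
Bars give Hif3a CPM (top), the summed CPM of monocyte and macrophage markers (middle) and of neutrophil markers (bottom) in each of the 12 libraries, from 0. Tβ-MCA replicates 3 and 4 are lowest in the first and second panels, at 1.05 and 1.24 CPM of Hif3a and at 289 and 331 CPM of monocyte and macrophage markers.

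Hif1a, the α subunit with by far the most RNA, was 133, 130 and 141 CPM with PBS and 159, 156 and 139 CPM with Tβ-MCA. The groups overlapped through Tβ-MCA replicate 5, and the log2 fold change was 0.17 (SE 0.0643), or 0.22 without that library. With TCA, Hif1a was 146, 158 and 148 CPM, above all PBS values, and with GCA it was 145, 143 and 138 CPM. Epas1, which encodes HIF-2α, was 0.975, 1.21 and 1.32 CPM with PBS and 1.23, 1.19 and 1.98 CPM with Tβ-MCA. Its log2 fold change with Tβ-MCA was 0.33 (SE 0.356) and 0.05 without Tβ-MCA replicate 5. With GCA it ran from 0.648 to 1.92 CPM, a spread wider than any difference between groups.

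Arnt, the shared β subunit, was the steadiest member. It was 206, 196 and 190 CPM with PBS and 198, 201 and 192 CPM with Tβ-MCA, and its log2 fold change was 0.00 (SE 0.0634), or 0.02 without Tβ-MCA replicate 5. TCA gave 195 to 214 CPM and GCA 192 to 215 CPM, so all groups overlapped.

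Of the prolyl hydroxylases, Egln1 was 27.2, 24.1 and 23.2 CPM with PBS and 30.7, 29.7 and 29.0 CPM with Tβ-MCA. The groups did not overlap, and the log2 fold change was 0.26 (SE 0.0820), or 0.28 without Tβ-MCA replicate 5. With GCA, Egln1 was 25.9, 30.2 and 29.0 CPM, above PBS except in replicate 3, and with TCA it was 26.0 to 27.0 CPM, within the PBS range. Egln2 was 61.7 to 69.5 CPM with PBS and 61.8 to 65.9 CPM with Tβ-MCA, a log2 fold change of −0.08 (SE 0.0745), or −0.11 without Tβ-MCA replicate 5. Egln3 was 12.8, 11.7 and 11.5 CPM with PBS and 13.9, 13.2 and 11.8 CPM with Tβ-MCA, a log2 fold change of 0.11 (SE 0.105), or 0.17 without Tβ-MCA replicate 5. Within a library, Egln2 had 3.25 to 3.70 times the RPKM of Egln1 with PBS and 2.58 to 2.92 times with Tβ-MCA.

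Vhl, the substrate receptor of the ubiquitin ligase for hydroxylated α subunits, was 8.23, 10.2 and 9.65 CPM with PBS and 10.1, 11.5 and 10.5 CPM with Tβ-MCA. The groups overlapped at PBS replicate 5 and Tβ-MCA replicate 3, and the log2 fold change was 0.20 (SE 0.104), or 0.21 without Tβ-MCA replicate 5. Hif1an, which encodes FIH, was 33.0, 32.0 and 29.8 CPM with PBS and 38.6, 34.0 and 33.0 CPM with Tβ-MCA. The ranges did not overlap, by a gap smaller than the rounding of these values, and the log2 fold change was 0.16 (SE 0.0981), or 0.20 without Tβ-MCA replicate 5.

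**Figure D4:**
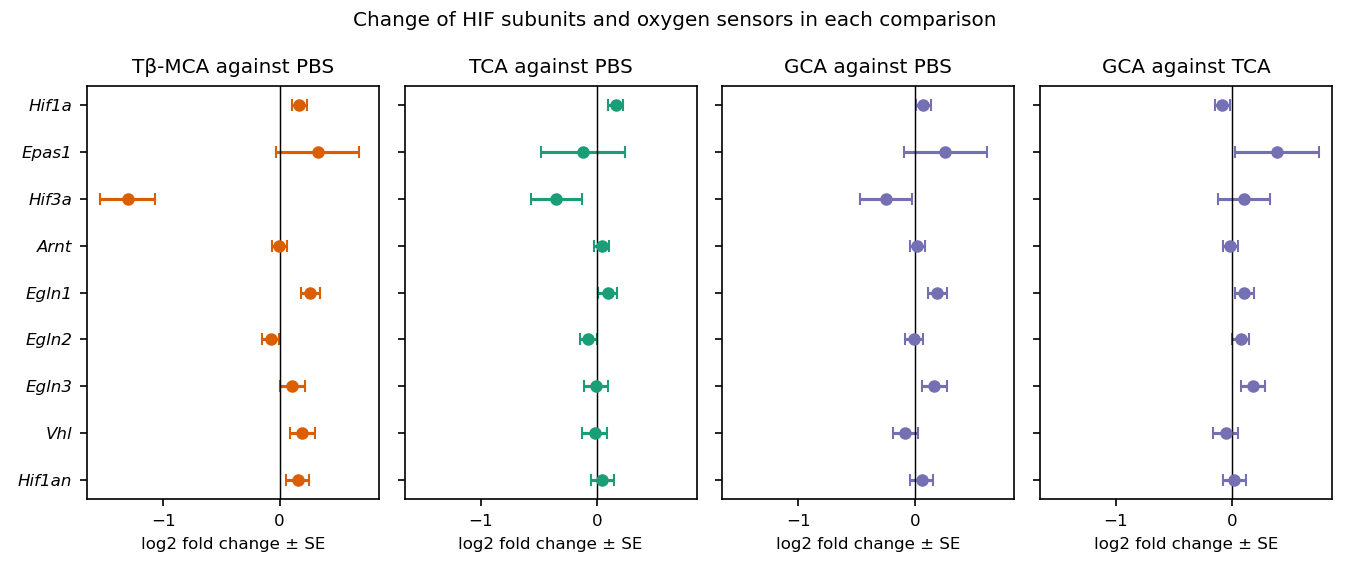
Log2 fold change of each gene (point) with its standard error (bar) in 4 comparisons on a common axis. With Tβ-MCA Hif3a is at −1.31 and the other 8 genes lie between −0.08 and 0.33 (Epas1, which is at 0.05 without Tβ-MCA replicate 5), and in the comparisons of TCA and GCA all points lie between −0.35 and 0.38.

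Between Tβ-MCA and PBS, 1 of the 9 members, Hif3a, was called at an adjusted p under 0.05 (quasi-likelihood test of edgeR, adjusted by Benjamini-Hochberg over 16761 genes), where 7.62% of all genes tested were called. Values of 3 members (Hif3a, Egln1 and Hif1an) did not overlap between the groups, against 27% of all genes. Since this contrast chose the set, nothing is read from these counts. The count of members called was 3 without Tβ-MCA replicate 5 (Hif3a lower, Hif1a and Egln1 higher). In that fit 8.52% of all genes were called higher and 9.44% lower. The count was 0 without PBS replicate 3, PBS replicate 5, Tβ-MCA replicate 3 or Tβ-MCA replicate 4, where 0 of all genes were called. In the fits that left out 1 library, the Hif3a log2 fold change stayed between −1.10 and −1.72.

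TCA and GCA were then compared with PBS for the 8 members other than Hif3a. With TCA, 0 were called in edgeR, where 0% of all genes were called, and 0 in DESeq2. Of these 8, limma called 0 of the 7 it tested, since Epas1 was under its minimum of 0.5 RPKM. Hif1a alone had an unadjusted p under 0.05, with a log2 fold change of 0.16 (SE 0.0643, adjusted p = 0.9999 in edgeR) and 3 of 3 TCA libraries above all PBS libraries. At that unadjusted threshold 3.26% of all genes passed. Of these 8 members, Hif1a alone had values that did not overlap between TCA and PBS, against 9.67% of all genes. Hif3a is left out of this count because PBS values entered its choice.

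With GCA, 0 of the 8 members were called in edgeR, with a background of 0% again, 0 in DESeq2 and 0 of 7 in limma. Egln1 alone passed an unadjusted p under 0.05, with a log2 fold change of 0.19 (SE 0.0821, adjusted p = 0.999 in edgeR), where 3.53% of all genes passed. Egln3 was 13.3, 13.7 and 13.5 CPM, above all PBS values, with a log2 fold change of 0.17 (SE 0.105, adjusted p = 0.999 in edgeR). Of these 8 members, Egln3 alone had values that did not overlap between GCA and PBS, against 9.55% of all genes.

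The matched doses of GCA and TCA allowed the glycine conjugate to be compared with the taurine conjugate, in samples of which none was used in choosing Hif3a. This was the only pair of compounds compared, and p-values were adjusted over all 16761 genes. The Hif3a difference was 0.10 on the log2 scale (95% interval −0.37 to 0.58, adjusted p = 0.9998 in edgeR), and the CPM ranges overlapped. The interval covers from 0.772 to 1.49 times the TCA level, and differences inside it were not detectable with these libraries. Hif1a was lower with GCA in 3 of 3 libraries, by a log2 fold change of −0.09 (95% interval −0.22 to 0.05, adjusted p = 0.9998 in edgeR). The intervals were tight for Arnt (−0.15 to 0.12) and Egln2 (−0.09 to 0.23) and wide for Epas1 (−0.38 to 1.15). In all, 0 of 9 members were called by edgeR, 0 had an unadjusted p under 0.05, 0 were called by DESeq2 and 0 of the 7 tested by limma (without Hif3a and Epas1), where 0% of all genes were called and 2.46% had an unadjusted p under 0.05. Values of 1 member, Hif1a, did not overlap, against 8% of all genes.

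HIF target genes were described next as the output of the pathway. Of 54 listed targets in the table, 49 were tested between Tβ-MCA and PBS, and 4 were higher and 1 was lower, where 4.44% of all genes were higher and 3.18% were lower. The median log2 fold change of the 49 was −0.01, against 0.00 for all genes. Of the 4 higher targets, Pdk1 and Pfkl were listed under glucose uptake and glycolysis, and Bhlhe40 and Mxi1 under transcription and feedback. A positive fold change was found in 24 of 49.

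Bhlhe40, a transcriptional repressor induced by hypoxia, was 59.3, 73.1 and 75.5 CPM with PBS and 134, 134 and 97.2 CPM with Tβ-MCA, without overlap. Its log2 fold change was 0.81 (SE 0.145, adjusted p = 0.0208 in edgeR). Pdk1, a pyruvate dehydrogenase kinase, was 5.34, 6.53 and 5.31 CPM with PBS and 10.5, 11.7 and 8.32 CPM with Tβ-MCA, a log2 fold change of 0.83 (SE 0.190, adjusted p = 0.0251 in edgeR). The Pdk1 window with a single core is the last of the sequences above. Pfkl, the liver-type subunit of phosphofructokinase, was 116 to 127 CPM with PBS and 221, 207 and 152 CPM with Tβ-MCA, a log2 fold change of 0.66 (SE 0.132, adjusted p = 0.0211 in edgeR). Mxi1, an antagonist of Myc, was 409 to 424 CPM with PBS and 549, 522 and 447 CPM with Tβ-MCA, a log2 fold change of 0.28 (SE 0.0710, adjusted p = 0.0317 in edgeR). In each of these 4 genes Tβ-MCA replicate 5 was nearest to PBS, and without it the log2 fold changes were 0.95 for Bhlhe40, 0.96 for Pdk1, 0.80 for Pfkl and 0.36 for Mxi1.

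Pkm, which encodes pyruvate kinase, was the lower target, at 1522 to 1595 CPM with PBS and 1264, 1326 and 1430 CPM with Tβ-MCA, a log2 fold change of −0.22 (SE 0.0625, adjusted p = 0.0460 in edgeR). Among the 21 genes of glucose uptake and glycolysis, 2 were higher (Pdk1 and Pfkl) and 1 was lower, and the median log2 fold change was −0.10. Of the 7 vascular and matrix targets, 0 were called, as were 0 of 6 of mitochondria and survival and 0 of 4 of pH, iron and oxygen supply, with 2, 4 and 0 at an unadjusted p under 0.05. At that threshold there were 2 higher and 9 lower genes among the 21 of glucose uptake and glycolysis. Of all genes 24.9% passed, with 12.6% higher and 12.3% lower.

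These calls depended on single libraries. Without Tβ-MCA replicate 5 the targets called were 5 higher and 9 lower, with 8.52% of all genes higher and 9.44% lower. The 5 higher were the same 4 and Bnip3, a mitophagy receptor. The 9 lower were Pkm, the glucose transporter Slc2a1, hexokinase 2 (Hk2), Tpi1, the lactate exporter Slc16a3, Pfkfb3, Ddit4, the peptide precursor Edn1 and the matrix enzyme Lox. Their log2 fold changes in that fit ran from −0.23 for Pfkfb3 to −2.32 for Lox, with Slc16a3 at −0.63 and Slc2a1 at −0.43. Without PBS replicate 3, PBS replicate 5, Tβ-MCA replicate 3 or Tβ-MCA replicate 4, 0 targets and 0 of all genes were called. Without PBS replicate 6, 1 target was higher (Bhlhe40) and 0 were lower.

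**Figure D5:**
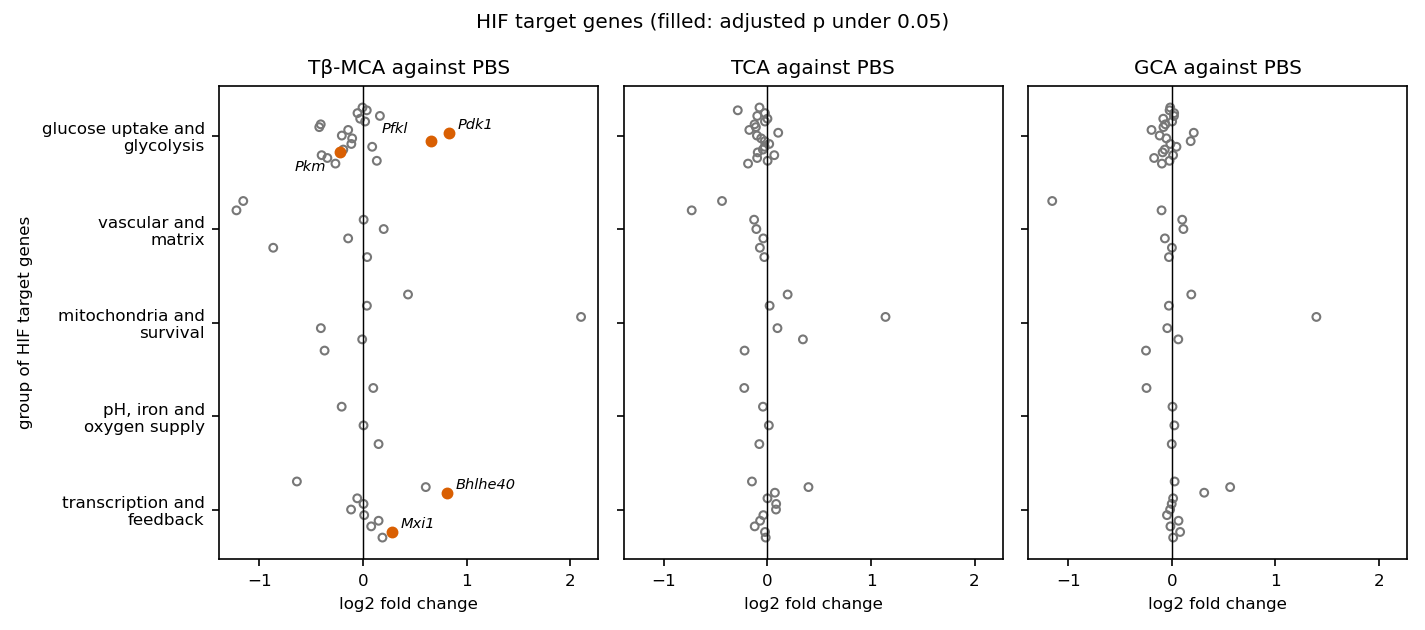
Log2 fold change against PBS of the 49 HIF targets tested, by functional group, with filled named points for those called at an adjusted p under 0.05. With Tβ-MCA 4 genes are called to the right and Pkm to the left, and with TCA and GCA no point is filled.

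With TCA and with GCA, 0 of 49 targets were called by edgeR or by DESeq2, and 0 by limma among those of at least 0.5 RPKM, the genes it tested. At an unadjusted p under 0.05 there were 2 lower targets of the 49 with TCA and 1 with GCA. At that threshold 1.77% of all genes were lower with TCA and 1.78% with GCA. Lactate dehydrogenase A, Ldha, was 200, 208 and 204 CPM with PBS, 175, 182 and 185 CPM with TCA and 171, 180 and 184 CPM with GCA. Every TCA and GCA value lay below every PBS value, with log2 fold changes of −0.17 (adjusted p = 0.9999 in edgeR) and −0.20 (adjusted p = 0.999 in edgeR). Of all genes, 4.76% were lower without overlap with TCA and 4.83% with GCA. The PBS libraries are shared by these comparisons. Between GCA and TCA 0 targets were called by edgeR, DESeq2 or, of those it tested, limma and 0 had an unadjusted p under 0.05.

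Genes that act on α subunit turnover or as cofactors were described as a separate list. Of 15 tested with Tβ-MCA, 0 were called by edgeR, DESeq2 or, of those it tested, limma and 1 had an unadjusted p under 0.05, where 24.9% of all genes did. The lowest p-values were those of the chaperone Hsp90ab1 (log2 fold change 0.17, adjusted p = 0.117 in edgeR) and of elongin B, listed as Tceb2 (−0.26, adjusted p = 0.238 in edgeR). Their median was −0.08, against 0.00 for all genes.

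The other members of the bHLH-PAS family, to which the HIF subunits belong, were mostly too low to test, with 4 of 9 in the table passing the filter. Ahrr, the repressor of the aryl hydrocarbon receptor, was 6.97, 5.89 and 6.09 CPM with PBS and 1.32, 2.16 and 4.74 CPM with Tβ-MCA. As for Hif3a, the groups did not overlap and replicate 5 was nearest to PBS. The log2 fold change of Ahrr was −1.20 (SE 0.346, adjusted p = 0.0569 in edgeR), which did not pass, and −1.85 (adjusted p = 0.000137 in edgeR) without Tβ-MCA replicate 5. It was called by DESeq2 as well. Ahr itself was near 1 CPM, with a log2 fold change with Tβ-MCA of −0.30 (adjusted p = 0.627 in edgeR). In the other comparisons 0 of the turnover and bHLH-PAS genes were called by edgeR, DESeq2 or, of those it tested, limma, and 1 of these genes, Siah1b between GCA and TCA (log2 fold change 0.52, adjusted p = 0.9998 in edgeR), had an unadjusted p under 0.05.

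The genes whose levels over the 12 libraries were most like that of Hif3a, by Pearson's r of log2 CPM among 13223 genes with a mean of at least 1 CPM, were Fgr (r = 0.971), Pilra (0.970), Nacc2 (0.969), Vcam1 (0.967) and P4hb (0.966). Over the 9 libraries without Tβ-MCA the same r was 0.818, 0.783, 0.711, 0.589 and 0.729. The correlations are a description, since they were ranked from all genes and the libraries share the contrast on which Hif3a was chosen. Fgr went from 288 CPM with PBS to 275 with TCA, 275 with GCA and 230 with Tβ-MCA, a smaller relative step than that of Hif3a, and Vcam1 went from 13.5 CPM with PBS to 6.11 CPM with Tβ-MCA.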

How the data were processed

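RNA of 12 libraries was sequenced, 3 for each of PBS, TCA, GCA and Tβ-MCA. Per the submitters' processing notes, reads were trimmed with Trimmomatic 0.36, aligned with STAR 2.5.3a to GRCm38 and counted per gene with featureCounts (Subread 1.5.1). The deposited raw counts per gene and the RPKM values that the authors derived from them were used as deposited, and samples were grouped by their labels. Columns spelled GA were taken as GCA, as the text of the design uses GA for that treatment. There were 0 columns of other samples.

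Counts were scaled by TMM in edgeR 4.0.16 (R 4.3.3). Of 29737 genes, 16761 passed filterByExpr. The quasi-likelihood test was fitted with robust settings to all 12 samples with no covariate, p-values were adjusted by Benjamini-Hochberg over all genes tested, and genes were called at an adjusted p under 0.05. The log2 CPM of the correlations used a prior count of 2, fold changes were those of the edgeR fit, and the script was tested on simulated data. The members and lists were chosen with earlier results of these data known. Named genes were the members, list genes that were called, otherwise the 2 of lowest p, genes that overlap a member, and the 5 most like Hif3a. Motifs were searched in RefSeq promoter windows on both strands. Alternatives were DESeq2 1.42.0, limma 3.58.1 on log2(RPKM + 1) for genes with a mean of at least 0.5 RPKM, other scalings and filters, the 2 groups alone, a replicate block, and leaving out each library.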

Additional observations from a re-analysis of the deposited data

How the results depend on the processing

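Calls between Tβ-MCA and PBS changed with the processing, and the cause was not tested. The count of members called was 1, and it was 2 with DESeq2 and with total library sizes, 0 with only the 2 groups fitted, and 0 to 3 on leaving out each library. The 4 higher HIF targets became 0 with only the 2 groups, 1 when an unadjusted p and a 2-fold change were required, and 0 to 5 on leaving out each library. The 1 lower target became 7 with DESeq2, 6 with no filter on low counts, 2 with at least 10 counts in every sample, 0 with limma, total library sizes or only the 2 groups, and 0 to 9 on leaving out each library. Of the bHLH-PAS relatives 1, Ahrr, was called with DESeq2, with either other filter, by the unadjusted p and 2-fold rule and without Tβ-MCA replicate 5 (range 0 to 1), against 0. Over all genes 1278 were called, against 2103 with DESeq2, 2406 with no filter, 494 by the 2-fold rule, 0 with only the 2 groups and 0 to 3076 on leaving out each library. In the other comparisons the counts of members and list genes called stayed at 0 under these alternatives, while all genes called reached 37 with TCA, 36 with GCA and 42 between GCA and TCA with no filter, and 78, 89 and 74 by the 2-fold rule. The Hif3a fold change kept its sign against PBS in each alternative that could include it; limma could not, as the means of Hif3a and Epas1 were under 0.5 RPKM. Of 566 fold changes of members and called targets under an alternative, 23 changed sign with no call on either side.

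Libraries with the same replicate number deviated together (mean r 0.189 over 15 pairs, lowest 0.0597, against −0.0716 over 39 other pairs). Loxl2, a listed HIF target singled out after its values were seen, had 0 to 2 counts in replicate 3 of each group. In every other library it had 155 to 222 counts. No label says that a number marks a shared animal or day, and the main fit did not use the number. With the replicate block the lower targets were 3 and the Hif3a log2 fold change with Tβ-MCA was −1.35, and Pfkl was not called (adjusted p = 0.0621 in edgeR).

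With 3 libraries a group, counts of 35 to 143 for Hif3a and 23 to 74 for Epas1 limit the precision for both genes.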

Other observations

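The row of Epo, the erythropoietin gene and a classical HIF target, was singled out after its values were seen. It stood at 44.9 ± 6.10 RPKM with PBS, 43.8 ± 4.17 with TCA, 45.6 ± 4.24 with GCA and 40.3 ± 4.79 with Tβ-MCA (SD, n = 3), above the mean RPKM of every member in each group. Its fold change with Tβ-MCA was not called (log2 fold change −0.21, adjusted p = 0.320 in edgeR). In the coordinates of the count table the row holds an exon of 104 bases at chr5:137533139-137533242 (GRCm38), 47.3 kb from its nearest other exon, and all 104 bases are shared with an exon of Gnb2, a G protein subunit gene. The part of that exon in the Epo counts was not tested, so the row was counted among the targets but its level is uncertain.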
